A study of Mus musculus with 4 samples.

Results

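Chromosome 2 of the mouse carried 740 H3K36me2 peaks in the melatonin library, against 818 in the untreated library, 1558 of the 16060 peaks deposited for the series (7699 melatonin and 8361 untreated). The regions were chosen by chromosome alone, so every peak that either list placed on chromosome 2 is included, and the choice of this chromosome and of its stretch from 43 to 46 Mb was made from peak counts seen earlier. The number of peaks here and the height of that stretch are therefore a description. H3K36me2, histone H3 dimethylated at lysine 36 (K36), was mapped by ChIP-seq, the sequencing of DNA recovered with an antibody, in mesenchymal stem cells (MSCs), cultured stromal cells of mouse bone marrow that can form bone, cartilage and fat. Cells of the melatonin library received 1 µM melatonin, the pineal hormone, for 24 hours, per the treatment label. The other library is labelled untreated, although the treatment protocol text repeats the melatonin treatment for every sample, so the groups rest on the treatment label alone. Both were grown in DMEM with 10% FBS, and each ChIP library had its own input library, made without antibody. The series' design text speaks of old donors and of age groups, but the sample labels give no age, strain, sex or number of animals. There was 1 ChIP library per condition, so every difference given here is one between 2 libraries with no replicate check and no test. Peak lists carry no measure of RNA or of cell markers, so the labelled cell type could not be checked against expression here.

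H3K36me2 is written by the NSD1, NSD2, NSD3 and ASH1L methyltransferases, and NSD2 is named in the title of the study. The mark is known from other mammalian cells as one that spreads over wide tracts of gene bodies and of the space between genes, where it recruits the DNA methyltransferase DNMT3A and hinders the repressive mark H3K27me3. Active promoters with many CpG sites usually carry other marks. A peak in these lists is a short window in which the tags stood out over input. Coverage outside the peaks was not analysed here, so whether wider tracts lay behind them is not known.

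Sequence could be shown for the few RefSeq promoter windows of GRCm38.p6 that a peak touched. The windows reach from 250 bases before to 50 after a gene start. Of 2847 such windows on chromosome 2, belonging to 2325 genes, 6 overlapped a melatonin peak (0.211%) and 5 an untreated peak (0.176%). Over all chromosomes, 0.207% of 32851 windows overlapped a melatonin peak and 0.143% an untreated peak, so the chromosome 2 shares were near the background. Of the 11 windows on chromosome 2, 2 belong to protein-coding genes and 9 to long noncoding RNAs (lncRNAs). The peak took in only 1 base of the Gm10851 window, 53 of Gm34483 and 189 of Gm46743. In these windows the start itself lay outside the peak. The 4 windows printed here are those of both protein-coding genes and of the lncRNA with the highest peak fold in each list, and they were picked after the values were seen. They show windows that a peak covered wholly or nearly so. Capitals are the bases inside the peak, and all read 5′ to 3′ on the strand of the gene.

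Pde1a, chr2:79908350-79908649, minus strand, under a melatonin peak: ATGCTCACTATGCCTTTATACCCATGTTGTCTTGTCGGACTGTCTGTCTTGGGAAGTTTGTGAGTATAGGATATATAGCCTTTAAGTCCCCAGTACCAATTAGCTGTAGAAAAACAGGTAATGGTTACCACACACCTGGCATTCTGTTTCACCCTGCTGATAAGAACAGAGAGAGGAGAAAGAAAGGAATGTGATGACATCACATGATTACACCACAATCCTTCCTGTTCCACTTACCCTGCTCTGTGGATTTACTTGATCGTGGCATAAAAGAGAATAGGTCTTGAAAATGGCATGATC

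Gm13561, chr2:62454867-62455166, plus strand, under a melatonin peak: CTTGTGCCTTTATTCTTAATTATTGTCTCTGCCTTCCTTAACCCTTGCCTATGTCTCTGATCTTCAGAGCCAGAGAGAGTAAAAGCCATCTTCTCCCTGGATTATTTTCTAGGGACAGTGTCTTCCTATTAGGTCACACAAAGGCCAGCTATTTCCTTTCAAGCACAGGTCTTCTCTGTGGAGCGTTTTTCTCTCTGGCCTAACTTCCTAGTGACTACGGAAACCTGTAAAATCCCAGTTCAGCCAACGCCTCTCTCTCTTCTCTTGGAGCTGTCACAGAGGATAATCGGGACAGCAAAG

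Plcb4, chr2:135764588-135764887, plus strand, under an untreated peak: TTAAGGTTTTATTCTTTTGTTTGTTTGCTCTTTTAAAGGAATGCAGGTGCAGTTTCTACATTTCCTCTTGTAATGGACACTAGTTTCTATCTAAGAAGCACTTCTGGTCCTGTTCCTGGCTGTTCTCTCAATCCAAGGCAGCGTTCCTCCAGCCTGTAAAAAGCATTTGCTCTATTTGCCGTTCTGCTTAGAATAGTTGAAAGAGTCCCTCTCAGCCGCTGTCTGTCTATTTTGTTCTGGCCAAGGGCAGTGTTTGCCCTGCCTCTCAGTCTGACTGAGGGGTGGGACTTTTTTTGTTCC

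Gm46758, chr2:116906893-116907192, minus strand, under an untreated peak: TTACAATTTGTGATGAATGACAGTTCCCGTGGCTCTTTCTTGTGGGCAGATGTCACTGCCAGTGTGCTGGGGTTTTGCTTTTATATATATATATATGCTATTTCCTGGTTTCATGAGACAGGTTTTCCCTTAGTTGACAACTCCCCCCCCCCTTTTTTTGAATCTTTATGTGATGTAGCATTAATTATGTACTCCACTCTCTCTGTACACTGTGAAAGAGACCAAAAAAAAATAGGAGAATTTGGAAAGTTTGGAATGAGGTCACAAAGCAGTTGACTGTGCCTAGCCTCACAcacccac

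Pde1a encodes a cyclic nucleotide phosphodiesterase, and its marked start is 1 of 4 listed for the gene and lies inside the gene body. The melatonin peak over it spanned chr2:79907748-79908748 and had a fold over input of 4.02. Plcb4 encodes a phospholipase C beta enzyme, and its marked start is 1 of 2 listed and also lies inside the gene body. The untreated peak over it spanned chr2:135763342-135765029 and had a fold of 4.85. The lncRNA Gm13561 lies between Dpp4 and Gcg, and its melatonin peak had a fold of 8.26. The lncRNA Gm46758 lies between Tmco5 and Spred1, and its untreated peak had a fold of 7.26. All 11 windows that a peak touched had few CpG sites. They held a median of 3 CpG and at most 5, against a median of 7 over all 2847 windows, and none held more than 10, against 41.7% of all windows. Their median GC content was 45.7%, against 52.7% over all windows. Most of the 11 windows belong to lncRNAs, and lncRNA windows alone were not compared. These values are therefore not read as a trait of starts with the mark.

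Chromosome 2 peaks resembled the other peaks of their lists in size and strength. Chromosome 2 held 9.61% of the melatonin list (95% Poisson interval of the count 688 to 795) and 9.78% of the untreated list (763 to 876), or 4.07 and 4.49 peaks per Mb. Melatonin peaks numbered 0.905 times the untreated peaks (exact binomial 95% interval 0.818 to 1), against 0.923 over the other chromosomes. At a fold over input of at least 6 the direction turned, to 1.11 (0.909 to 1.35). The normalised tag count, in tags per 10000000, ran from 10.6 to 36.3 with a median of 13.4 in the melatonin library, and from 10.6 to 39.4 with a median of 13.6 in the untreated library. The ratio of ChIP to input tags, called the fold here and taken from the authors' peak finder, had medians of 5.14 (melatonin) and 4.98 (untreated), where those of the other chromosomes were 5.11 and 4.87. Regions wider than the 1000 bp search window made up 22.4% of the melatonin peaks and 21.1% of the untreated peaks of chromosome 2. The threshold asked for a fold of 4, and the weakest peaks just inside it had folds of 4.02 in the melatonin list, against 4.01 in the untreated list; windows just outside it are not in these lists. Total tags were 14180076.5 in the melatonin library, against 13198427.5 in the untreated library, and a window needed 18 and 17 tags. A site absent from one list therefore may still have carried the mark. Intervals reflect counting error in the number of peaks alone. Amplified reads that carry no molecular identifier need not be independent, which the intervals do not allow for. All intervals also treat peaks as independent of each other, although peaks cluster, so they may be too narrow.

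Peaks were crowded into a small part of the chromosome, and windows high in one library were mostly high in the other. The chromosome was divided into 183 windows of 1 Mb, and each peak was placed by its midpoint. The median window held 2 melatonin and 2 untreated peaks, the mean window 4.04 melatonin and 4.47 untreated peaks, and 39 windows held none from either list. A window was called dense when it held at least 3 times the mean of both lists together, which is 25.5 peaks. There were 14 dense windows, 7.65% of all windows, and they held 298 melatonin peaks (40.3%) and 333 untreated peaks (40.7%). Dense windows thus carried 21.3 melatonin and 23.8 untreated peaks per Mb, and the rest of the chromosome 2.62 and 2.87. Counts in the 183 windows had a Pearson correlation of 0.90 and a Spearman correlation of 0.79 between libraries, and a Pearson correlation of 0.67 over the 169 windows that were not dense. These correlations are descriptions, because windows share the same gene content, the same peak finder and the same mappable sequence. More melatonin than untreated peaks were found in 53 windows, and fewer in 66.

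**Figure D1:**
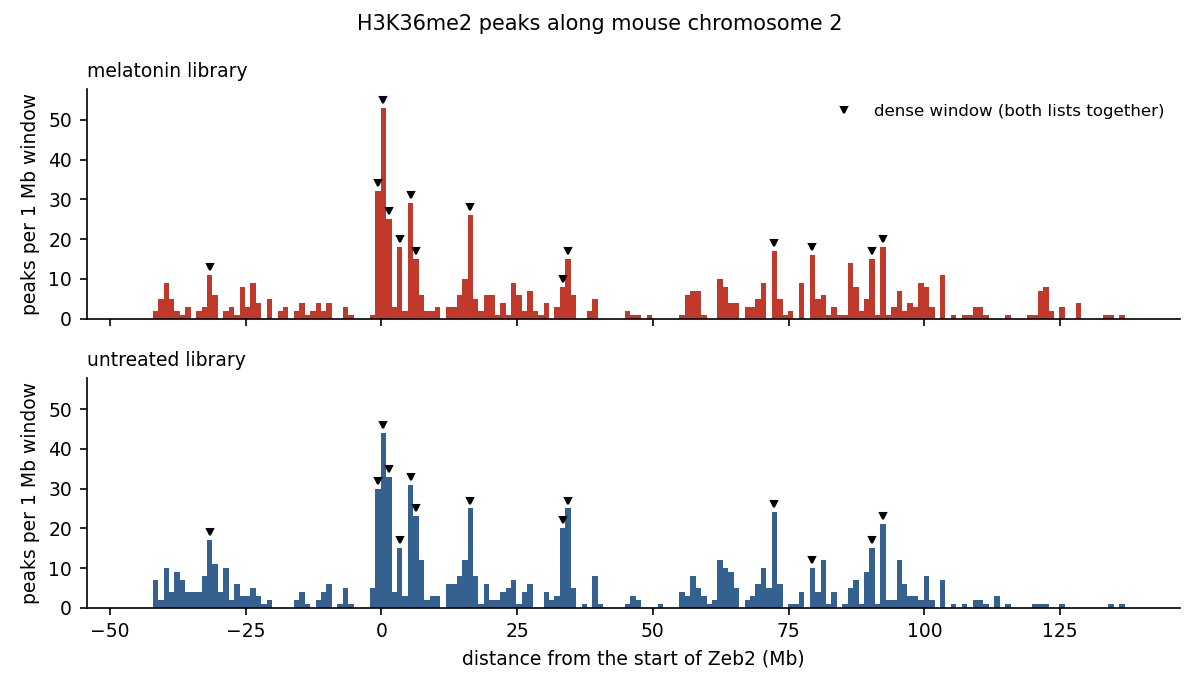
Peaks per 1 Mb window along chromosome 2 in the melatonin library (top) and the untreated library (bottom), against the distance of the window centre from the start of Zeb2 in Mb; triangles mark the 14 dense windows. The highest bar in both panels, 53 melatonin and 44 untreated peaks, is the window that begins within Zeb2, and the other tall bars of the 2 panels stand at like distances.

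**Figure D2:**
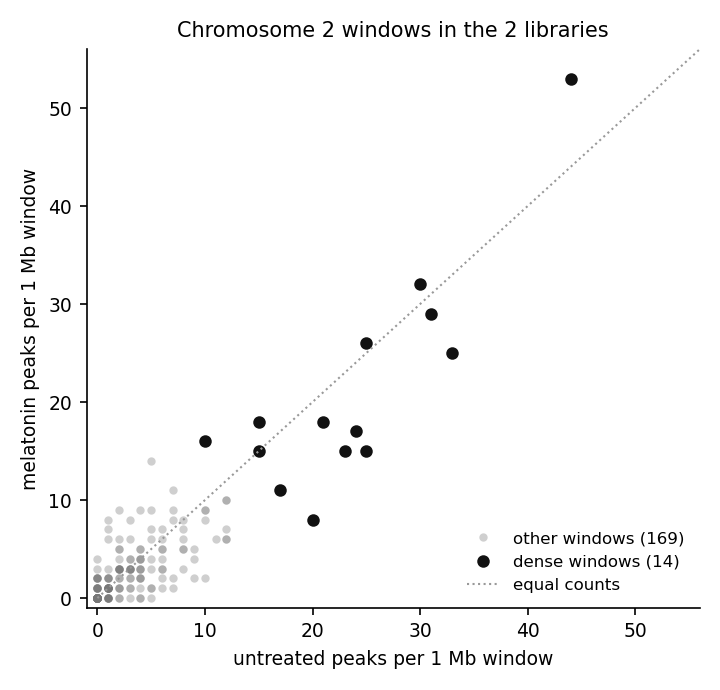
Melatonin against untreated peaks in each of the 183 windows of 1 Mb, with the dotted line at equal counts; black points are the 14 dense windows and grey points the other 169, darker where points coincide. Dense windows reached at most 53 melatonin and 44 untreated peaks and lie on both sides of the line.

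Other chromosomes were also uneven. The densest 10% of windows held 45.8% of the peaks of chromosome 2, against 42.2% on chromosome 10, 39.4% on chromosome 13 and 37.6% on chromosome 3, which were the chromosomes nearest in number of peaks. Over all other chromosomes this share ran from 34.5% on chromosome 19 to 77.8% on X. Chromosomes 4, 5, 7, 8, 12, 16 and X, all with fewer peaks, lay above chromosome 2. Windows without a peak made up 21.3% of chromosome 2, 13% of chromosome 10, 16.5% of chromosome 13 and 20.6% of chromosome 3. The single window from 45 to 46 Mb on chromosome 2 ranked first of all windows in the melatonin list and 4th in the untreated list. Over both lists its 97 peaks came after those of windows on chromosome 13 with 108 peaks and chromosome 10 with 100.

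The stretch from 43 to 46 Mb held 86 melatonin peaks (95% Poisson interval 68.8 to 106), which is 11.6% of the chromosome's melatonin peaks, and 79 untreated peaks (62.6 to 98.5), which is 9.66%. The ratio was 1.09 (0.793 to 1.5). The crowding did not begin at the 43 Mb mark: the window from 43 to 44 Mb held 1 melatonin and 5 untreated peaks, and the crowding ran on past 46 Mb. The next 3 windows held 32, 53 and 25 melatonin peaks, against 30, 44 and 33 untreated peaks. Together the dense windows from 44 to 47 Mb held 110 melatonin peaks (14.9%) and 107 untreated peaks (13.1%). Regions wider than 1000 bp were 34.5% of the melatonin peaks there and 30.8% of the untreated peaks. Median folds were 5.35 in the melatonin list, against 5.13 in the untreated list.

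The protein-coding genes of the dense windows from 44 to 47 Mb are Arhgap15, Gtdc1 and Zeb2, followed by a long gap before Acvr2a. Zeb2, a zinc finger repressor of transcription that acts in epithelial to mesenchymal transition (chr2:44983512-45117442), held no peak in either list. The peak-free space around it was 153 kb long, from chr2:44973816-45126948, and the nearest peaks lay 9.51 kb from the gene in the melatonin list, against 9.70 kb in the untreated list. On one side, Gtdc1, which encodes a glycosyltransferase-like protein (chr2:44564412-44927717), held 13 melatonin and 13 untreated peaks in 363 kb. The best folds in Gtdc1 were 17.8 in the melatonin library, against 44.9 in the untreated library, and 1 site was called in both lists. Arhgap15, a GTPase-activating protein for Rac (chr2:43748798-44395953), held 12 melatonin and 14 untreated peaks in 647 kb, with best folds of 11.0 and 10.9. The 168 kb between Arhgap15 and Gtdc1 added 5 melatonin and 6 untreated peaks.

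On the other side of Zeb2, peaks filled a space without protein-coding genes. From the start of Zeb2 the run went on for 1.57 Mb with 78 melatonin and 77 untreated peaks. Taking peaks of both lists no more than 200 kb apart as 1 run, a distance set after the peaks were seen, the whole run spanned chr2:43757741-46684150. It was 2.93 Mb long, held 111 melatonin and 112 untreated peaks, and was followed by 0.64 Mb without any. The 100 kb step with most melatonin peaks, from 45.7 to 45.8 Mb, held 11 melatonin and 4 untreated peaks. The neighbouring step from 45.8 to 45.9 Mb held 7 of each, and that from 45.9 to 46 Mb held 2 melatonin and 7 untreated peaks. Single steps thus differed in both directions, while the totals over the run lay 1 peak apart. In the dense windows from 44 to 47 Mb, 14 melatonin and 14 untreated peaks lay in other annotated genes, outside protein-coding genes and their flanks. The lncRNA Gm28643, 30.5 kb long and just beyond the start of Zeb2, held 4 melatonin and 3 untreated peaks. Gm13479, an lncRNA of 48.5 kb, held 3 melatonin and 4 untreated peaks.

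**Figure D3:**
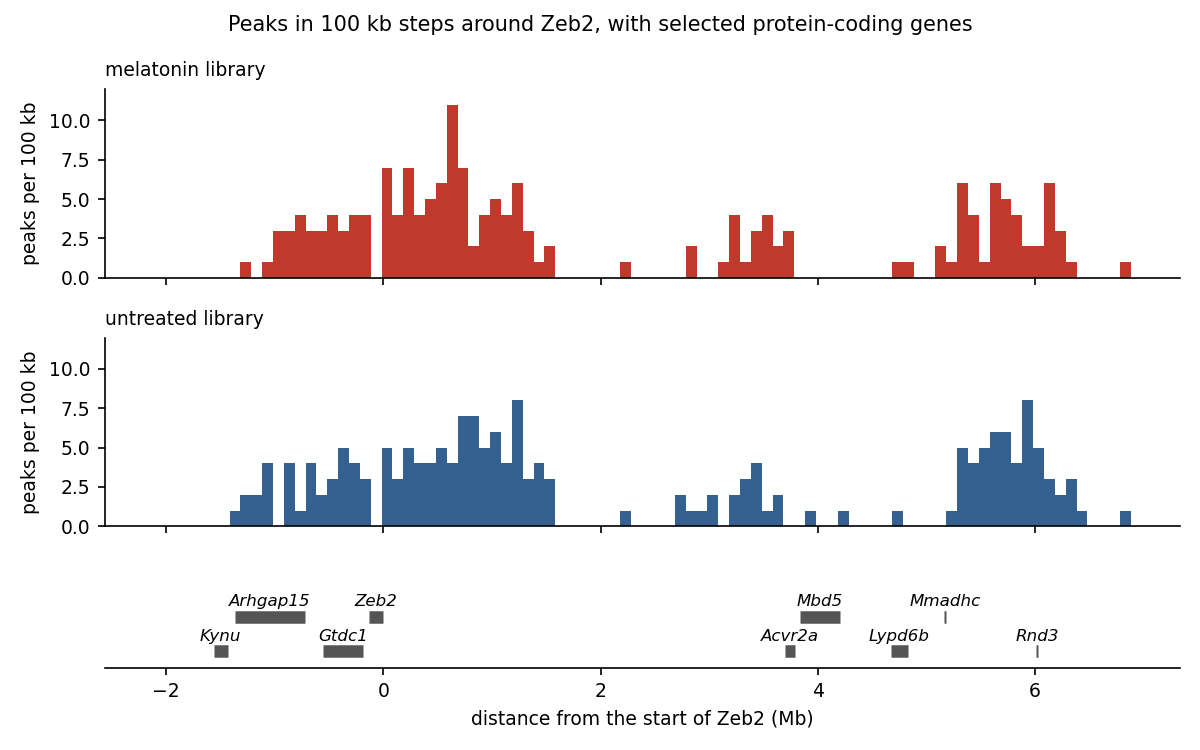
Peaks per 100 kb step around Zeb2 in the melatonin library (top) and the untreated library (middle), with 9 protein-coding genes drawn to scale (bottom), against the distance from the start of Zeb2 in Mb. Both libraries show the run over Arhgap15, Gtdc1 and the space beyond Zeb2, no bar in the 100 kb step that lies wholly within Zeb2, and further groups before Acvr2a and between Mmadhc and Rnd3.

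Genes of the Zeb2 neighbourhood list, 13 genes from Lrp1b to Mmadhc, held peaks in 5 members. Within the body or 2 kb on either side, 4 genes held a melatonin peak and 4 an untreated peak, and 8 held none, where 7.18% of all protein-coding genes of the chromosome held a melatonin peak and 6.68% an untreated peak. The neighbourhood was picked for its peaks, so nothing is read from that excess. The members with peaks were Arhgap15, Gtdc1, Lypd6b with 2 melatonin peaks and 1 untreated peak, Acvr2a with 1 melatonin peak of fold 10.1, and Mbd5 with 1 untreated peak of fold 7.69. Acvr2a encodes an activin receptor, and Mbd5 a methyl-CpG-binding domain protein. Lrp1b, a lipoprotein receptor gene of 2058 kb and the longest of the chromosome's genes over 300 kb, held none. Its nearest peak lay 1184 kb away in the melatonin list and 1104 kb away in the untreated list. Kynu, which encodes the tryptophan-degrading enzyme kynureninase, held none either, with nearest peaks at 155 kb in the melatonin list, against 74.7 kb in the untreated list.

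The other 9 clusters fell into those with peaks between genes and those with peaks inside a gene. Counts given here for genes of a cluster are of peaks that touch the gene body and lie within the dense windows, without the 2 kb flanks. The windows from 50 to 52 Mb held 44 melatonin and 54 untreated peaks, and none of the 6 protein-coding genes touching them, Lypd6, Mmadhc, Rnd3, Tas2r134, Rbm43 and Nmi, held a peak there. The gap between Mmadhc, a vitamin B12 trafficking gene, and Rnd3 held 29 melatonin and 41 untreated peaks in 831 kb. The window from 61 to 62 Mb held 26 melatonin and 25 untreated peaks and touches Tank, Psmd14 and Tbr1, all with none. Nearly all of these belonged to the gap of 615 kb between Rbms1, an RNA-binding protein gene, and Tank, a regulator of NF-kB signalling, which held 27 melatonin and 26 untreated peaks, or 86.2 of both per Mb. The window from 137 to 138 Mb held 18 melatonin and 21 untreated peaks. It holds Jag1, which encodes a Notch ligand and had no peak, and the end of Slx4ip, with 1 melatonin peak in that end and 2 melatonin peaks and 1 untreated peak over the whole gene. The 1140 kb gap from Jag1 to Btbd3 held 17 melatonin and 21 untreated peaks. The midpoint of the first lay 4.38 kb from Jag1, and the midpoint of the last 335 kb short of Btbd3.

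The window from 117 to 118 Mb held 17 melatonin and 24 untreated peaks, while its genes Spred1 and Fam98b held none and Rasgrp1 held 1 melatonin peak. The gap from Rasgrp1, a Ras exchange factor, to Thbs1, the matrix protein thrombospondin 1, held 14 melatonin and 25 untreated peaks in 769 kb. The window from 48 to 49 Mb, which holds Acvr2a, Orc4 and part of Mbd5, had 18 melatonin and 15 untreated peaks, of which the lncRNA Gm13481 held 6 and 6. All of these clusters had most peaks outside protein-coding genes.

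Other clusters lay in genes. The window from 13 to 14 Mb held 11 melatonin and 17 untreated peaks, and Cubn, the endocytic receptor cubilin, held 5 melatonin and 9 untreated peaks of them. In the same window St8sia6 held 1 melatonin and 3 untreated peaks, Trdmt1 held 1 untreated peak in its body and 1 melatonin peak within 2 kb of it, and Pter, C1ql3, Rsu1 and Vim, the gene of the mesenchymal filament protein vimentin, held none. The window from 124 to 125 Mb held 16 melatonin and 10 untreated peaks, of which Sema6d, a semaphorin gene, held 10 melatonin and 6 untreated peaks. The window from 135 to 136 Mb held 15 of each. There Plcb1 held 6 melatonin and 4 untreated peaks and Plcb4 held 4 of each, both genes encoding phospholipase C beta enzymes.

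The windows from 78 to 80 Mb differed most between the libraries among the clusters, with 23 melatonin and 45 untreated peaks, a ratio of 0.511 (0.295 to 0.863). Protein-coding bodies held 9 of these melatonin and 15 of these untreated peaks, spread over several genes. Ppp1r1c, an inhibitor of protein phosphatase 1, held 2 melatonin and 7 untreated peaks. The gap from Gm14461 to Ube2e3 held 3 melatonin and 12 untreated peaks, and the gap from Ube2e3 to Itga4, an integrin gene, held 2 melatonin and 12 untreated peaks. Cerkl held 2 melatonin and 3 untreated peaks, Gm14461 held 3 untreated peaks, Itprid2 held 1 of each in its body and another melatonin peak within 2 kb, and Ube2e3, Itga4 and Neurod1 held none. Pde1a differed in the other direction, with 4 melatonin peaks and 1 untreated peak inside these windows. This cluster was singled out from 10 after its values were seen, and the interval does not allow for that or for the clustering of peaks.

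Peaks on chromosome 2 lay less often in protein-coding genes than the space such genes take up. Protein-coding bodies covered 44.7% of the chromosome and held 236 melatonin peaks (31.9%, Wilson 95% interval 28.6 to 35.3) and 265 untreated peaks (32.4%, 29.3 to 35.7). On the other chromosomes the shares were 29.0% in the melatonin list, against 27.4% in the untreated list. Protein-coding bodies covered from 26.75% (X) to 45.95% (chromosome 11) of those chromosomes, and only chromosomes 11 and 19 (45.6%) lay above chromosome 2. Whether the higher shares on chromosome 2 go beyond its larger coding cover was not tested. Outside all gene bodies and 2 kb flanks of coding genes lay 387 melatonin peaks (52.3%) and 430 untreated peaks (52.6%). Genes that are not protein-coding held 102 melatonin peaks (13.8%) and 115 untreated peaks (14.1%). In dense windows the share outside genes was 62.4% of melatonin peaks and 63.7% of untreated peaks, against 45.5% and 44.9% in the other windows. Median folds were 5.19 melatonin and 4.98 untreated in dense windows, against 5.12 and 4.98 elsewhere. Median input tags per kb of peak were 3.03 melatonin and 3.63 untreated in dense windows, against 3 and 3.5 elsewhere.

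Dense windows held a median of 2.5 protein-coding genes (0 to 7), against 7 (0 to 61) in the other windows. Of the 183 windows, the 28 with more than 20 protein-coding genes held 50 of the 740 melatonin and 29 of the 818 untreated peaks. Windows without a peak, 39 in number, were not gene-rich as a set. They held a median of 4 protein-coding genes (0 to 61). Over all 183 windows, peaks of both lists and the number of protein-coding genes had a Spearman correlation of -0.12, and that with the share of the window in protein-coding bodies was 0.18. Such bodies took up a median of 16.1% of a dense window and 49.1% of another window.

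Gaps between protein-coding genes differed widely in how many peaks they held. Among the 22 gaps of at least 700 kb, a limit set after the peaks were seen, 6 held more than 20 peaks of both lists together and 13 held at most 3. Between these sets lay Celf2 to Gata3 with 18, Fign to Grb14 with 12 and Lrrc4c to Iftap with 8. Per Mb the sets were not sharply apart: Fign to Grb14 held 14.7 peaks, and the fuller gaps from 16.4 (Kcna4 to Mettl15) to 84.2 (Mmadhc to Rnd3). The 3697 kb from Zeb2 to Acvr2a held 98 melatonin and 96 untreated peaks. The longer gap of 3929 kb from Lrrc4c, a synaptic adhesion gene, to Iftap held 3 melatonin and 5 untreated peaks. The 6 gaps with no peak were Api5 to Lrrc4c (1880 kb), Dhx35 to Gm826 (1453 kb), Sqor to Sema6d (1280 kb), Dok5 to Cbln4 (1157 kb), Cdh26 to 4930591A17Rik (928 kb) and Lrp1b to Kynu (902 kb). Length did not separate the sets: the gaps with more than 20 peaks had a median length of 1033 kb (769 to 3697) and those with at most 3 a median of 1207 kb (787 to 1880). Pooled, the fuller gaps held 4.49 annotated lncRNAs per Mb and the emptier ones 2.56, but single gaps varied within both sets. Among the fuller gaps, Zeb2 to Acvr2a held 11 in 3697 kb and Mmadhc to Rnd3 held 7 in 831 kb. Among the empty gaps, Dok5 to Cbln4 held 7 in 1157 kb and Lrp1b to Kynu held 2 in 902 kb. The 6 gaps of any length with most peaks, Zeb2 to Acvr2a, Mmadhc to Rnd3, Rbms1 to Tank, Rasgrp1 to Thbs1, Jag1 to Btbd3 and Kcna4 to Mettl15, held 199 melatonin peaks (26.9%) and 224 untreated peaks (27.4%) on 4.85% of the chromosome.

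**Figure D4:**
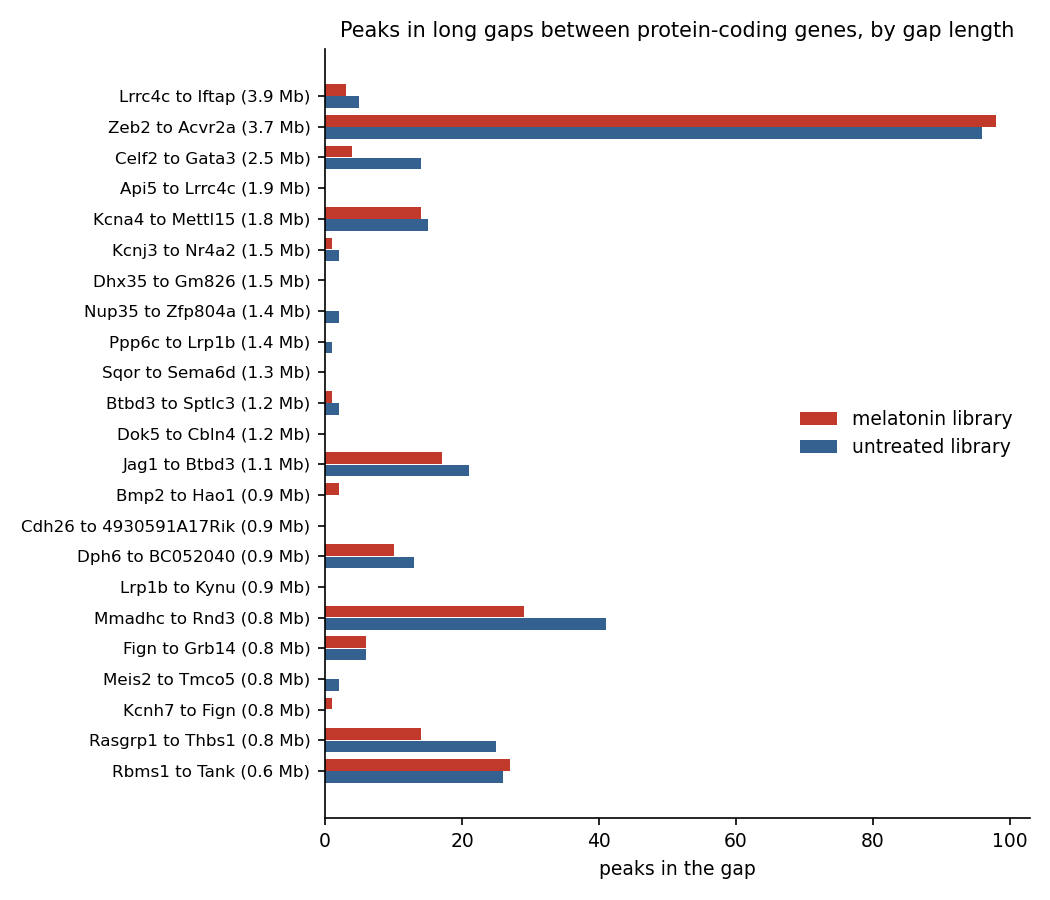
Peaks in the 22 gaps of at least 700 kb between protein-coding genes of chromosome 2 and in the 615 kb gap from Rbms1 to Tank, ordered by gap length, with the melatonin count above the untreated count in each pair of bars. Zeb2 to Acvr2a held 98 melatonin and 96 untreated peaks, while 6 of the long gaps show no bar.

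The longest stretch without a peak in either list was 5.39 Mb, chr2:85100738-90492625, and 222 of its 228 protein-coding genes are Olfr genes, which encode odorant receptors. None of the 287 Olfr genes of chromosome 2 held a peak in either list within the body or 2 kb, a family chosen for mention after the stretch was seen. Over all protein-coding genes of the chromosome, 7.18% held a melatonin peak and 6.68% an untreated peak. Gene length was not allowed for: the 49 coding genes touching the window from 86 to 87 Mb covered only 8.74% of it. The next longest stretch without a peak was 5.01 Mb, chr2:173449195-178457405, with Gnas, the gene of the stimulatory G protein alpha subunit, inside it. The third, of 4.42 Mb, chr2:39343043-43757740, ends in Arhgap15, so the run around Zeb2 adjoined a long empty space holding Lrp1b and Kynu.

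Of 1782 protein-coding genes on chromosome 2, 128 (7.18%) held a melatonin peak and 119 (6.68%) an untreated peak in the body or 2 kb on either side. Over all chromosomes, 5.93% of 21896 protein-coding genes held a melatonin peak and 5.7% an untreated peak. Both lists marked 62 genes, while 66 had a melatonin peak alone and 57 an untreated peak alone. Genes marked in both lists were long, with a median of 193 kb, against 67.2 kb with a melatonin peak alone, 96.7 kb with an untreated peak alone and 12.8 kb with none.

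The 10 genes with most peaks were all long. Macrod2, an ADP-ribose hydrolase gene of 1998 kb, held 9 melatonin and 18 untreated peaks. Arhgap15 and Gtdc1 came next, with the values given above. Plcb1 as a whole held 9 melatonin and 10 untreated peaks. Slc24a3, a sodium, calcium and potassium exchanger, held 8 melatonin and 5 untreated peaks. Celf2, an RNA-binding regulator of splicing, held 5 melatonin and 8 untreated peaks, and Camk1d, a calcium/calmodulin-dependent kinase, held 5 melatonin and 7 untreated peaks. Atp8b4, a phospholipid flippase gene, held 1 melatonin and 8 untreated peaks, the most uneven of the 10. Pde1a with 6 melatonin and 3 untreated peaks and Ppp1r1c tied with it at 9 peaks in all. Sema6d and Cubn complete the 10. Per length the order changed: Gtdc1 held 7.16 peaks of both lists per 100 kb, Cubn 6.50, Atp8b4 5.01 and Arhgap15 4.02, while Macrod2 held 1.35. Of the 37 genes over 300 kb, 22 held a melatonin peak and 23 an untreated peak. Among all protein-coding genes of the chromosome the shares were 7.18% (melatonin) and 6.68% (untreated). Longer genes leave more room for a peak and length was not allowed for, so nothing is read from that excess. The 11 of these 37 with none were Cdh4, Dcdc5, Dennd1a, Gpr158, Lrp1b, Myo3a, Pak7, Pde11a, Ptprt, Ryr3 and Tshz2.

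**Figure D5:**
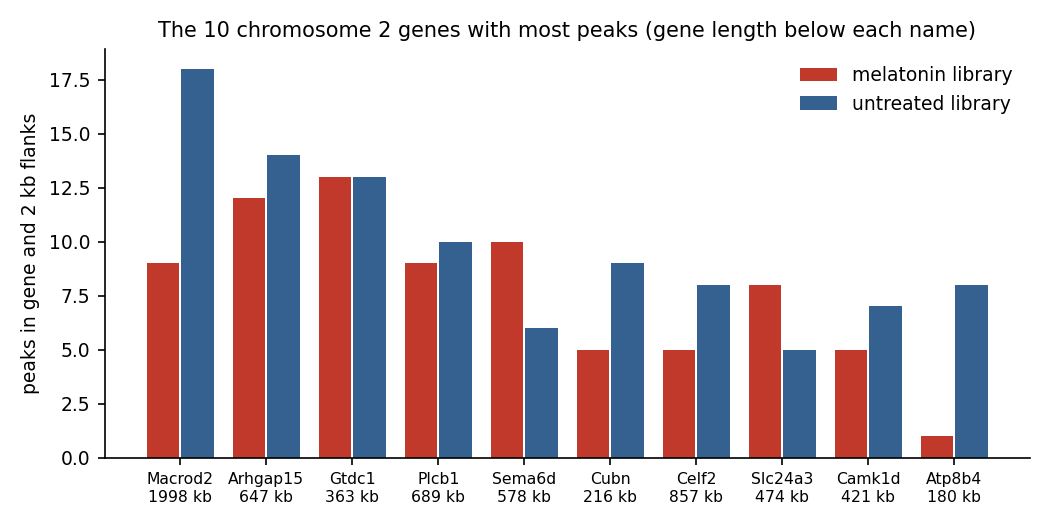
Peaks in the body and 2 kb flanks of the 10 chromosome 2 genes with most peaks over both lists, with the melatonin bar left of the untreated bar and the gene length in kb under each name. Macrod2 held 9 melatonin and 18 untreated peaks, Gtdc1 13 of each, and Atp8b4 1 melatonin and 8 untreated peaks.

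Most bone and stroma genes of chromosome 2 held no peak. Of 28 genes in that list, 3 held a melatonin peak and 2 an untreated peak, and 24 held none, among them Bmp2, Grem1, Lrp4, Cd44, Fbn1, Thbs1, Jag1 and Notch1. Acvr1, a BMP receptor gene, held 1 melatonin peak of fold 8.04, and Acvr2a held 1 melatonin peak. Acvr1c, an activin-like receptor gene, held 2 untreated peaks, the higher of fold 5.93. Dpp4, which encodes a surface peptidase, held 2 melatonin peaks and 1 untreated peak, with best folds of 7.61 and 4.06. Against the background of 5.93% and 5.7% of all genes, these few marked members are not a result about the list.

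Each of the further lists is small, and its count is to be set against the same 5.93% (melatonin) and 5.7% (untreated) of all protein-coding genes. None of 10 Hoxd cluster genes, limb patterning factors, held a peak in either list. Of 5 sodium channel genes, Scn3a alone held peaks, 2 in each library. Of 9 senescence, survival and secretory genes, Ptges, a prostaglandin E synthase gene, held 1 untreated peak of fold 5.93 and the others none. Among marker genes of other cell types, none of 4 endothelial and none of 5 lymphoid and erythroid genes held one. Of 6 myeloid genes Mrc1 held 1 untreated peak of fold 7.26, and of 9 neuronal genes Gad2 held 2 melatonin peaks and 1 untreated peak. H3K36me2 is not a measure of expression, so these counts do not show which cells were present, and nothing is read from them about the lists.

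Although peaks of both lists crowded into the same windows, single peaks seldom coincided. Of the chromosome 2 peaks, 51 melatonin peaks (6.89%, Wilson 95% interval 5.28 to 8.95) and 50 untreated peaks (6.11%, 4.67 to 7.97) overlapped a peak of the other list by 1 bp or more. The background over all chromosomes was 6.12% of melatonin peaks and 5.6% of untreated peaks. In dense windows 11.1% of melatonin peaks and 9.61% of untreated peaks overlapped, against 4.07% and 3.71% in other windows. Closer packing also brings peaks together, and its part in this was not tested: the median distance between neighbouring peaks was 21.3 kb in dense windows in each list, against 106 kb in the melatonin list, against 87.8 kb in the untreated list elsewhere. There were 51 overlapping pairs. The gap from Zeb2 to Acvr2a held 14 of them and the gap from Mmadhc to Rnd3 held 8.

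The pair with the highest folds relative to both lists lay between Slc23a2 and Tmem230, at chr2:132153712-132154712 with a fold of 8.26 in the melatonin list and chr2:132153114-132155026 with a fold of 10.6 in the untreated list. Only 8 pairs lay in protein-coding genes. Itga8, an integrin gene, had folds of 6.09 melatonin and 4.81 untreated, and Gtdc1 had folds of 17.8 melatonin and 4.19 untreated. The site in Celf2 had folds of 5.36 melatonin and 4.70 untreated. Cubn held 2 of the pairs, and Itgb6, Abcb11 and Abtb2 held 1 each, with folds from 4.02 to 5.51.

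The highest folds rested on very few input tags. The 5 highest melatonin folds ran from 29.6 to 32.2, each over 0.5 scaled input tags, and lay in Slc24a3, in Plcb1, and in the gaps from Rasgrp1 to Thbs1, from Fermt1 to Bmp2 and from Zeb2 to Acvr2a. The 5 highest untreated folds ran from 43.6 to 44.9, each over 0.4 scaled input tags, and lay in Plxdc2, in Gtdc1, and in the gaps from Malrd1 to Plxdc2, from Rbms1 to Tank and from Jag1 to Btbd3. Ranking by tags gave other sites. The melatonin peak with most tags, 36.3 per 10000000, spanned chr2:124694615-124697217 between Sema6d and Slc24a5. The untreated peak with most tags, 39.4 per 10000000, spanned chr2:45830904-45833334 in the gap from Zeb2 to Acvr2a and overlapped 2 melatonin peaks.

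The balance of the libraries changed towards the ends of the chromosome, seen in stretches of 20 Mb that were compared after the window counts were known. The first 20 Mb held 63 melatonin and 112 untreated peaks, a ratio of 0.563 (0.406 to 0.773). At a fold of at least 6 that ratio was 0.826 with an interval of 0.425 to 1.59. This takes in 1 and also the 1.11 of the whole chromosome at that fold. The stretch from 160 to 180 Mb held 29 melatonin and 6 untreated peaks, a ratio of 4.83 (1.97 to 14.2). The 7 stretches between them had ratios from 0.771 to 1.23, and the remainder from 180 Mb on held 1 peak of each list. In the first 20 Mb, the gap from Celf2 to Gata3, a transcription factor gene, held 4 melatonin and 14 untreated peaks. Malrd1 held 1 melatonin and 7 untreated peaks and Slc39a12, a zinc transporter gene, 1 melatonin and 5 untreated peaks, while Cacnb2, a calcium channel subunit gene, held 4 melatonin peaks and 1 untreated peak.

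From 160 to 180 Mb, 7 melatonin peaks and 1 untreated peak lay between Gm30733 and Prex1, a Rac exchange factor gene. Another 6 melatonin peaks and 1 untreated peak lay between Cebpb, a transcription factor gene of fat and bone cell differentiation, and Ptpn1. Pmepa1, a feedback inhibitor of TGF-beta signalling, and the gap beyond it held 4 melatonin peaks and no untreated peak. No pair of peaks overlapped in the Cebpb to Ptpn1 gap. Median folds from 160 to 180 Mb were 4.78 in the melatonin list, against 4.40 in the untreated list, and median input tags per kb were 3.5 and 3.9. In the first 20 Mb they were 5.07 and 4.74 for folds and 3 and 3.63 for input tags. Whether depth, the input libraries or treatment moved these balances was not tested.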

How the data were processed

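H3K36me2 ChIP-seq peak lists of 1 melatonin and 1 untreated library were used as deposited. Per the file headers, HOMER findPeaks called peaks in histone style in each library against its own input, with a 1000 bp window, thresholds over input of 4 for the fold and 1e-04 for the Poisson p, and no pooling. For HOMER no version is given in the sources used here. The submitters' processing notes also list BWA 0.7.13, Picard 1.126 and MACS2 2.1.0, and the build mm39.

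The deposited normalised tag count is a signal in ChIP tags per 10000000, per the file headers, and the scaled ChIP and input tag columns are a signal too. The findPeaks score, the fold ratio over input and the unadjusted p-value over input are the authors' own values, which served to describe and filter the peaks of 1 list at a time.

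Coordinates were read as GRCm38, since the last peaks on chromosomes 3 and 7, ending at 159805034 and 145328623, lie past where mm39 ends on both. In the RefSeq table of GRCm38.p6, 28.4% of peak midpoints lay in protein-coding genes, and 36.9% to 41.3% after shifts of up to 500 kb. That table gives no strand, exons or UTRs. No genome sequence was used here, so peak sequence, repeats and mappability were not examined.

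Peaks were counted with Python 3.11.15, pandas 2.3.3 and scipy 1.17.1, in a procedure tested on simulated data. Intervals are exact Poisson for counts, Wilson for shares and exact binomial for ratios, and all treat peaks as independent. Named genes are those of the dense clusters, the 10 with most peaks, the 5 highest folds per list, shared sites in genes and list members with a peak. Genes at peak-free stretches, at long gaps and in the first 20 Mb and from 160 to 180 Mb, and the list members named as without a peak, were picked after their values were seen. Members, lists and rules were chosen with earlier results of these data known. Alternatives were a fold of 6, a p of 1e-05, equal list lengths, other windows, overlaps and flanks.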

Additional observations from a re-analysis of the deposited data

How the results depend on the processing

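No paired analysis was possible because each condition had 1 ChIP library. The number of dense windows depended on how they were drawn: it was 14 as reported, 29 with windows of 0.5 Mb, 5 with windows of 2 Mb, 8 with windows shifted by 0.5 Mb, 24 at 2 times the mean and 9 at 4 times the mean. The window from 45 to 46 Mb held most peaks under each of the 3 other peak thresholds tried.

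Overlap with the other list was 3.24% of melatonin and 2.93% of untreated peaks when 50% of both peaks had to overlap, 10.7% and 10.0% when gaps of up to 1 kb counted, 0.459% and 0.508% at a fold of at least 6, and 3.48% and 3.4% with an equal number of peaks per list. With 10 kb flanks, 41.5% of melatonin and 40.3% of untreated peaks counted as in protein-coding genes. Genes with a peak numbered 59 melatonin and 49 untreated at a fold of 6, and 72 and 77 with equal lists. The share at 43 to 46 Mb was 13.2% of untreated peaks at a fold of 6, and 14.7% of melatonin and 12.3% of untreated peaks with equal lists.

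The ratio of melatonin to untreated peaks on the chromosome was 1.11 (0.909 to 1.35) at a fold of 6, above 1 as over the whole lists, against 0.905 as reported. In the first 20 Mb it was 0.826 (0.425 to 1.59) at a fold of 6, an alternative added after the data were seen, and 0.491 with equal lists. From 160 to 180 Mb, a fold of 6 left 9 melatonin and 0 untreated peaks and equal lists left 15 and 0, so no ratio was formed. The cause of these changes was not tested, beyond stricter thresholds leaving fewer peaks. The median peak score was 19.5 for melatonin and 18.2 for untreated peaks, near the thresholds of 18 and 17 tags, and the part of depth in single sites was not tested.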
